A study of Mus musculus with 96 samples.

Results

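Striatal projection neurons read dopamine and adenosine through receptors that raise or lower cyclic AMP (cAMP). The 9 genes described here encode the core of that route: the dopamine receptors Drd1, Drd2 and Drd3, the adenosine receptor Adora2a, the G protein subunits Gnal (Golf alpha) and Gng7 (gamma 7), the adenylyl cyclase Adcy5, the protein kinase A target Ppp1r1b (DARPP-32) and the G protein switch-off factor Rgs9. They were taken by gene name, 9 of the 48795 genes in the table, and each name matched 1 row. Their RNA was measured in striatum and cerebral cortex of 48 mice of 6 genotypes, 96 libraries in all.

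All mice were on a C57BL/6 background and were dissected at 6 months of age. The genotypes were wild type, Q140 (heterozygous knock-in), Msh6+/-, Q140 with Msh6+/-, Msh6-/- and Q140 with Msh6-/-, with 8 mice each, 4 males and 4 females. Q140 is a model of Huntington's disease in which an expanded CAG repeat is knocked into the mouse Htt gene. Msh6 encodes a DNA mismatch repair protein. The tissues were whole dissected pieces and each value averages over all cell types in the piece. No dissection borders are given in the sources used here. Groups are called WT, Q140, Msh6het, Q140_Msh6het, Msh6ko and Q140_Msh6ko below.

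On GRCm38, the GENCODE annotation places Drd1 at chr13:54051183-54055705 on the minus strand, Drd2 at chr9:49340627-49408177, Drd3 at chr16:43754026-43822932 and Adora2a at chr10:75316877-75334784, these last 3 on the plus strand. Gnal lies at chr18:67088216-67226792 (plus) and Gng7 at chr10:80948624-81014945 (minus). Adcy5 lies at chr16:35154877-35305738 (plus), Ppp1r1b at chr11:98348404-98357796 (plus) and Rgs9 at chr11:109225355-109298129 (minus). All 9 are protein coding. An exon of Mppe1 overlaps Gnal on the opposite strand, and an exon of 1700003D09Rik overlaps Ppp1r1b in the same way. No source used here says whether the counting used strand, and the counts of these 2 genes could include reads of those neighbours.

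The striatum is the part of the forebrain that receives dense dopamine input. Its projection neurons fall into a class that carries D1 receptors, coupled through Golf to a rise in cAMP, and a class that carries D2 receptors, coupled to a fall in cAMP, together with the adenosine receptor Adora2a, which couples through Golf. Both classes use adenylyl cyclase 5 as their main cyclase. Cyclic AMP activates protein kinase A, which phosphorylates DARPP-32 and turns it into an inhibitor of protein phosphatase 1. RGS9 speeds the return of inhibitory G proteins to rest and is enriched in striatum, and D3 receptors are best known from the ventral striatum and the islands of Calleja.

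RefSeq start sites on GRCm38.p6 gave promoter windows, each of 300 bases, for 6 of the 9 genes, 8 windows in all. The windows of 4 genes whose striatal RNA moved together in Q140 mice are shown 5′ to 3′ on the gene's strand. Capitals mark matches on either strand to 4 short motifs. The GC box was searched as GGGCGG. The TATA box was searched as TATAAA. A further motif was the box with the letters CCAAT. The core of the cAMP response element was searched as TGACG, and overlaps between motifs were allowed. The Drd1 window is chr13:54055609-54055908 (minus strand), the Drd2 window chr9:49340153-49340452 (plus), the Adcy5 window chr16:35154614-35154913 (plus) and the Rgs9 window chr11:109298132-109298431 (minus).
Drd1: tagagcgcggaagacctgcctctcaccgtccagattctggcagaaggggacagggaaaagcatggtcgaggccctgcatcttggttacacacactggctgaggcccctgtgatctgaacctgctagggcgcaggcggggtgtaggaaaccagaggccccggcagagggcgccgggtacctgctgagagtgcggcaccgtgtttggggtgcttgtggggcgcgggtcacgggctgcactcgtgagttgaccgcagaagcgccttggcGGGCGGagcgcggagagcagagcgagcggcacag
Drd2: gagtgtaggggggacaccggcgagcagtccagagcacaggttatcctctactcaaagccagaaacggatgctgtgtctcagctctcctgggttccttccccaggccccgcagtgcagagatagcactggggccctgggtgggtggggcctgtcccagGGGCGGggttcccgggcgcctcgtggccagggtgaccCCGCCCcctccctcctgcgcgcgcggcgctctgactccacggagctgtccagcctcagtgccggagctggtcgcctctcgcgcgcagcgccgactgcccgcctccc
Adcy5: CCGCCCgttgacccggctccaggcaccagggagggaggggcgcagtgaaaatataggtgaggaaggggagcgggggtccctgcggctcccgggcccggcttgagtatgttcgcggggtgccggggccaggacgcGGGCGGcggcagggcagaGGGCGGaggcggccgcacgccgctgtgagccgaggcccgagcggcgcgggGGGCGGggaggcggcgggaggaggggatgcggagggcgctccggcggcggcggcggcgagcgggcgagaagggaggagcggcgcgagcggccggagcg
Rgs9: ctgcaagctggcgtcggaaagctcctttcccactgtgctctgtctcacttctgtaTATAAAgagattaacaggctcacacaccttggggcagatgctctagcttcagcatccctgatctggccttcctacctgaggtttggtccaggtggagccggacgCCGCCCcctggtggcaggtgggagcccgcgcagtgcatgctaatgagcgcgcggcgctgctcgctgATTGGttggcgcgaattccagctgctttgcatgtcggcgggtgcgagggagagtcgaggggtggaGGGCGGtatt

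The Adcy5 window was 79% G or C and held 4 GC boxes. The Drd2 window held 2 GC boxes and was 70.3% G or C, and the Drd1 window held 1 and was 65.7% G or C. The Rgs9 window held 2 GC boxes, 1 TATA box and 1 CCAAT box. Of the 8 windows, 1 held a cAMP response element core, the Gng7 window chr10:81001316-81001615, which is not among the 4 shown. That window and the Drd3 window, also not shown, held 0 GC boxes. A second Gng7 window held 5 and a second Drd1 window held 1. Of the 32851 promoters in the same table, 35.7% held a GC box, 37.4% a CCAAT box, 20.8% a cAMP response element core and 13.6% a TATA box. These matches describe letters in the windows, and the series holds no measurement of binding there.

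Library totals ran from 12.4 M to 22.9 M gene counts, with a median of 19.4 M. Levels of a gene are given as CPM, read counts scaled to a common library size by the trimmed-mean method within a tissue. Msh6, the targeted gene, had 14.6 to 18.4 CPM in WT striatum, 11.96 to 15.6 in Msh6het and 6.93 to 11.1 in Msh6ko. Msh6het and WT overlapped, and every Msh6ko library was below every WT library. Htt, the gene that carries the knock-in, was lower by 0.12 ± 0.04 on the log2 scale in Q140 than in WT striatum (edgeR, adjusted p = 0.00546). Which part of Msh6 was removed is not given in the sources used here. The striatal library of Q140_Msh6ko mouse 21-3 stood apart, with 2491 CPM of the choroid plexus gene Ttr. Comparisons between genotypes were recomputed without it, apart from those between the sexes.

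In WT mice, all 9 genes were higher in striatum than in cortex. Of all genes tested, 35.9% were called higher in striatum (edgeR's quasi-likelihood test, Benjamini-Hochberg adjusted p under 0.05). Drd2 had 230.5 to 291 CPM in striatum and 0.238 to 1.096 CPM in cortex, and its log2 difference between the tissues was 8.91 ± 0.09 (SE, n = 8 mice). Adora2a differed by 8.11 ± 0.09 on the log2 scale, Rgs9 by 6.87 ± 0.06 and Drd1 by 6.17 ± 0.06. The signalling genes shared with other brain regions differed less. The log2 difference was 4.95 ± 0.05 for Ppp1r1b, 4.55 ± 0.05 for Gng7, 3.98 ± 0.04 for Adcy5 and 2.82 ± 0.04 for Gnal. Drd3 had 22 to 49 reads per WT striatal library and 0 to 1 read per WT cortical library. The labels give both tissues of a mouse the same number. With the animal as a paired block, all 9 genes were again higher in striatum, with log2 differences of 8.90 for Drd2 and 2.82 for Gnal.

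On the deposited FPKM scale, which divides by gene length, the order in WT striatum was Ppp1r1b at 823 ± 36.8 FPKM (SD, n = 8), Gng7 at 436 ± 28.2, Adcy5 at 307 ± 10.8, Gnal at 191 ± 8.93, Adora2a at 176 ± 12.8, Drd2 at 163 ± 11.6, Rgs9 at 146 ± 5.53, Drd1 at 106 ± 5.39 and Drd3 at 1.22 ± 0.278. Among neighbours in this order, the ranges of Gnal and Adora2a overlapped, as did those of Adora2a and Drd2 and those of Drd2 and Rgs9. In WT cortex, Gnal (27.0 ± 1.44 FPKM) and Ppp1r1b (26.7 ± 1.98) led with overlapping ranges, followed by Adcy5 (19.5 ± 1.17) and Gng7 (18.6 ± 1.22), whose ranges also overlapped. The receptors and Rgs9 were all under 2 FPKM there. The lengths behind the FPKM values of Drd2 and Gnal, 1549 and 5761 bases, were shorter than their exon union in the GENCODE annotation, 2547 and 11172 bases, which bears on their place in the order.

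**Figure D1:**
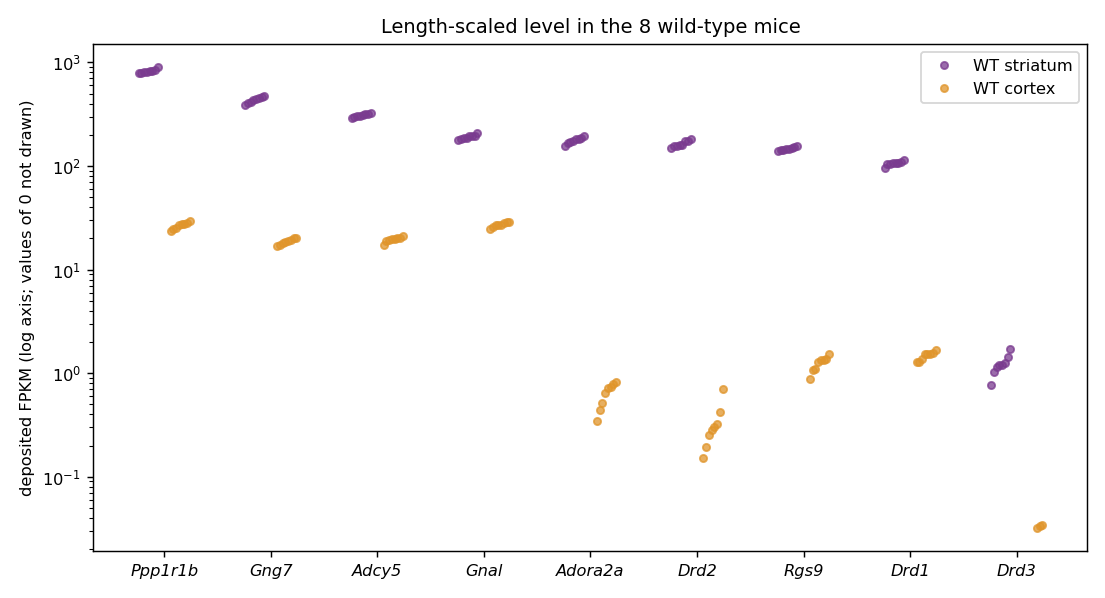
Deposited FPKM (log axis) of the 9 genes in the 8 WT mice, 1 point per library, striatum in purple and cortex in orange; values of 0 are not drawn. Every striatal library lay above every cortical library for each gene, from Ppp1r1b at 789 to 903 FPKM down to Drd3 at 0.762 to 1.72 FPKM in striatum.

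The first question of the design was what a Q140 allele does to these genes in striatum. In Q140 mice, 8 of the 9 genes were lower than in WT, and Drd3 did not pass the test. Among all genes, 14.2% were called lower. The median log2 fold change was -0.63 over the 9 genes and 0.01 over all 17503 genes tested. On the authors' FPKM scale, limma calls split 5370 higher to 1509 lower, against 2719 higher to 2482 lower from the counts, and the same 8 genes were lower on both scales. In pieces of tissue, fewer cells of a type and less RNA per cell cannot be told apart.

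Among the receptors, Adora2a changed most. It had 404 to 500 CPM (median 464) in WT and 233 to 271 CPM (median 256) in Q140, a log2 fold change of -0.84 ± 0.05 (SE, n = 8 and 8; adjusted p = 3.93e-18). No Q140 library reached the lowest WT library. Drd1 had 341 to 412 CPM (median 389) in WT and 227 to 255 CPM (median 249) in Q140, and its log2 fold change was -0.63 ± 0.04. Drd2 had 230.5 to 291 CPM (median 255) in WT and 154 to 185 CPM (median 167) in Q140, with -0.61 ± 0.05. Both dopamine receptors fell without overlap between the groups.

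Adcy5, the cyclase downstream of all of these receptors, had 2104 to 2350 CPM (median 2204) in WT and 1320 to 1437 CPM (median 1373) in Q140. Its log2 fold change was -0.69 ± 0.03, and its adjusted p of 4.92e-24 was the smallest among the 9 genes. Ppp1r1b had 2359 to 2752 CPM (median 2450) in WT and 1474 to 1636 CPM (median 1576) in Q140, a log2 fold change of -0.67 ± 0.04. Rgs9 had 912 to 1007 CPM (median 953) in WT and 556 to 629 CPM (median 594) in Q140, with -0.68 ± 0.03. These 3 genes and the receptors Drd1, Drd2 and Adora2a made up the 6 genes whose WT and Q140 libraries did not overlap. Among all genes, 4.21% were lower without overlap.

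The G protein subunits moved least. Gnal had 1035 to 1234 CPM (median 1132) in WT and 959 to 1045 CPM (median 986) in Q140, and its log2 fold change was -0.19 ± 0.03 (adjusted p = 1.22e-06). Gng7 had 1523 to 1866 CPM (median 1718) in WT and 1310 to 1537 CPM (median 1435) in Q140, with -0.24 ± 0.04 (adjusted p = 6.36e-07). For both subunits the highest Q140 library lay above the lowest WT library. Drd3 had 1.15 to 2.51 CPM (median 1.82) in WT and 1.41 to 3.52 CPM (median 1.80) in Q140, a log2 difference of 0.21 ± 0.17 (adjusted p = 0.390).

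**Figure D2:**
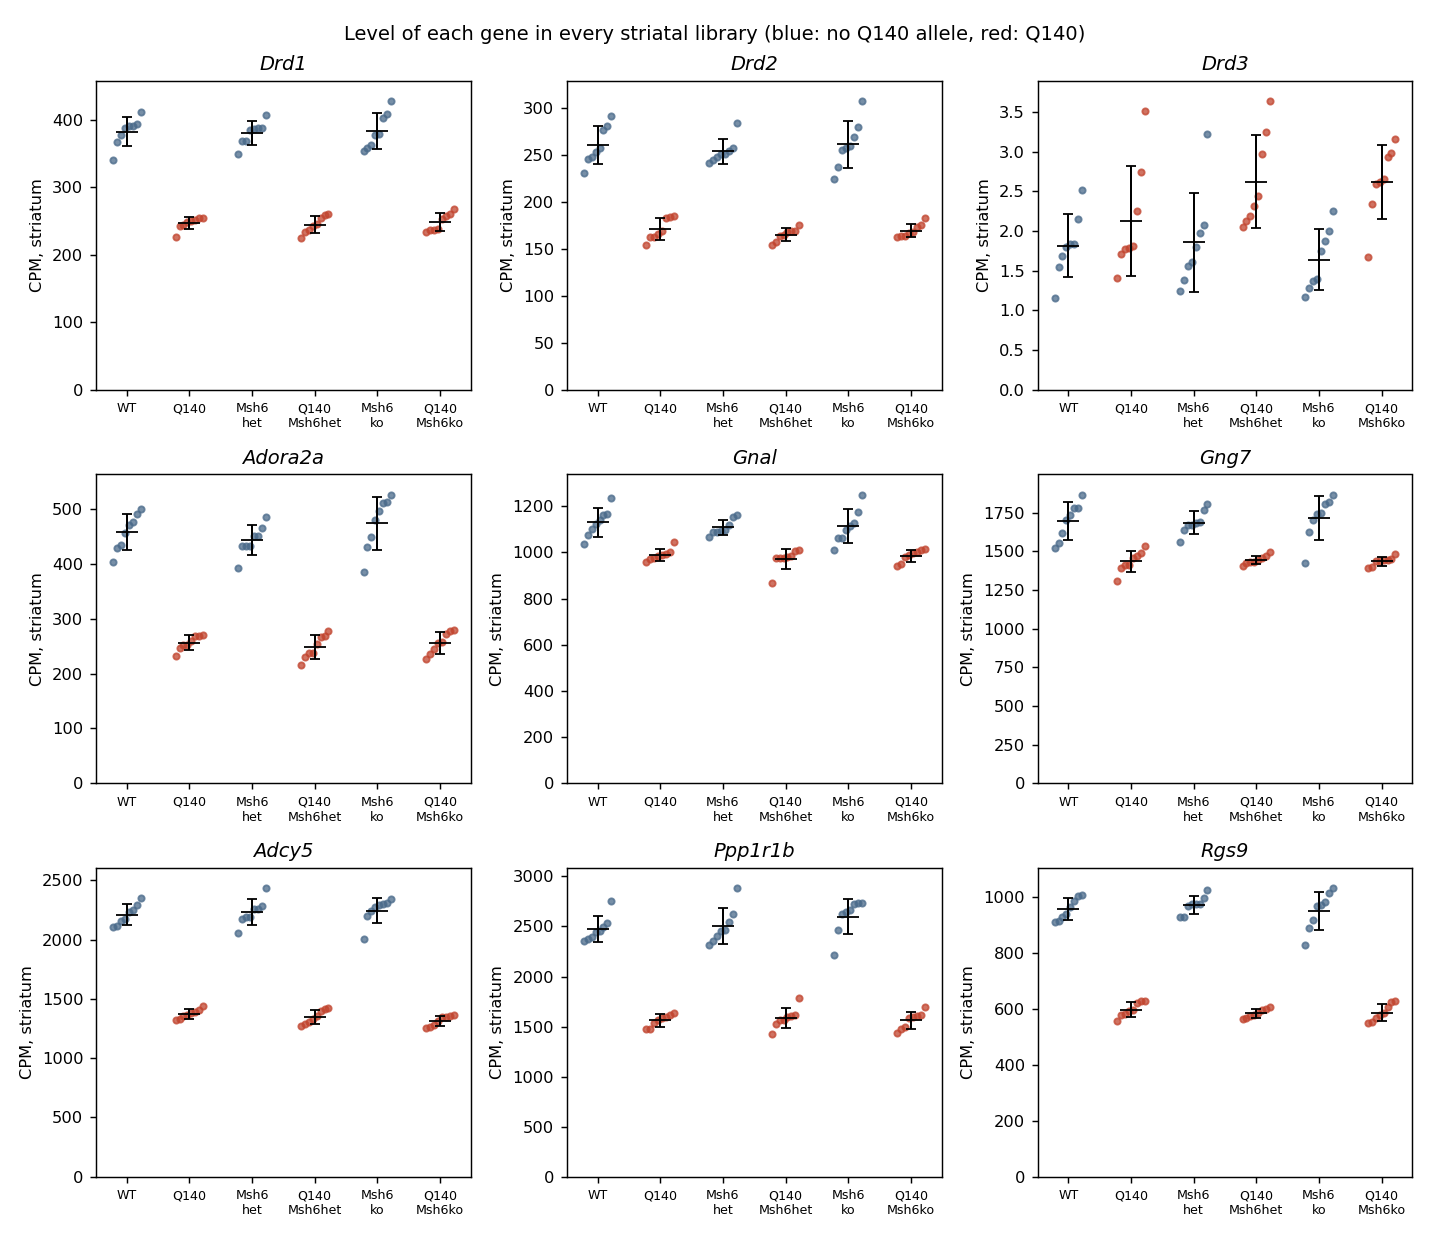
CPM of each gene in all 48 striatal libraries by genotype; points are mice sorted by value, and black marks are the mean ± SD of 8 mice (blue without and red with a Q140 allele). Adcy5 in Q140 mice lay between 1320 and 1437 CPM, below all WT mice at 2104 to 2350 CPM, while the groups of Gnal, Gng7 and Drd3 overlapped in the WT and Q140 pair.

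Markers of cell types moved beside these genes. Of 10 markers of striatal projection neurons outside the 9 genes (Rgs4 is also in the pathway list below), 8 were called lower and 1 higher in Q140 striatum. Their summed level was 8001 to 9189 CPM in WT and 5029 to 5381 CPM in Q140. None of the 10 was at 0 in any group. Of 5 tested cortical glutamatergic markers 3 were called higher, with sums of 92.4 to 124 CPM in WT striatum and 113 to 146 CPM in Q140 striatum, against 2114 to 2276 CPM in WT cortex. All 5 microglial markers were called lower, with sums of 258 to 294 CPM in WT and 220.4 to 251 CPM in Q140. Endothelial markers were called lower in 2 of 4, with sums of 129 to 139 CPM in WT and 105 to 120.4 CPM in Q140. Astrocyte markers were called lower in 2 of 5 and oligodendrocyte markers in 2 of 5. Among all genes, 14.2% were called lower and 15.5% higher. In the Msh6+/- and Msh6-/- pairs 3 and 4 of 5 microglial, 3 and 2 of 4 endothelial, 2 and 1 of 5 astrocyte and 3 and 4 of 5 oligodendrocyte markers were called lower. Among all genes, 14.9% and 15.2% were called lower there. Of 3 cholinergic interneuron markers 1 was called lower in each of the 3 pairs. Of 3 tested GABA interneuron markers 1 was called lower, in the Msh6-/- pair alone. All 4 tested choroid plexus markers were called higher in the Msh6-/- pair, which holds mouse 21-3. The part of these shifts in the result was not tested.

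The same Q140 comparison was made on Msh6+/- and Msh6-/- backgrounds, with other mice. The same 8 genes fell in both, and Drd3 rose. By limma on FPKM the split of all calls was 5144 higher to 1751 lower in the Msh6+/- pair and 5648 to 1657 in the Msh6-/- pair, against 2847 to 2615 and 3118 to 2658 from the counts. Among all genes, 14.9% were called lower and 16.3% higher in the Msh6+/- pair, and 15.2% lower and 17.8% higher in the Msh6-/- pair. In the Msh6+/- pair, all 8 fell without overlap between groups, against 4.91% of all genes. In the Msh6-/- pair 6 of the 9 did, against 4.8% of all genes, and Gnal and Gng7 overlapped.

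Adora2a had 392 to 486 CPM in Msh6het and 215 to 277 CPM in Q140_Msh6het, and 385 to 526 CPM in Msh6ko and 227 to 280 CPM in Q140_Msh6ko. Its log2 fold changes were -0.83 ± 0.05 and -0.89 ± 0.05. Adcy5 had 2055 to 2435 CPM in Msh6het and 1272 to 1425 CPM in Q140_Msh6het, a log2 fold change of -0.73 ± 0.03. In the Msh6-/- pair it had 2003 to 2347 CPM against 1256 to 1368 CPM, a log2 fold change of -0.77 ± 0.03. Drd1 fell by 0.64 ± 0.04 and 0.63 ± 0.04 on the log2 scale in the Msh6+/- and Msh6-/- pairs, and Drd2 fell by 0.62 ± 0.05 in both. Ppp1r1b fell by 0.66 ± 0.04 and 0.74 ± 0.04, and Rgs9 fell by 0.74 ± 0.03 and 0.70 ± 0.03. The G protein subunits again moved least: Gnal fell by 0.19 ± 0.03 and 0.18 ± 0.03, and Gng7 fell by 0.22 ± 0.04 and 0.26 ± 0.04.

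Drd3, the least abundant of the 9 genes, rose in both of these pairs. It had 1.24 to 3.22 CPM (median 1.70) in Msh6het and 2.05 to 3.64 CPM (median 2.38) in Q140_Msh6het, a log2 fold change of 0.51 ± 0.17 (adjusted p = 0.0177). It had 1.17 to 2.26 CPM (median 1.57) in Msh6ko and 1.67 to 3.15 CPM (median 2.64) in Q140_Msh6ko, with 0.68 ± 0.17 (adjusted p = 0.00135), and 0.64 ± 0.18 without mouse 21-3. The groups overlapped in both pairs, and these values rest on 23 to 64 reads per library. A ventral striatum list of Wfs1, Crym and Nts summed to 254 to 347 CPM in Msh6het and 267 to 346 CPM in Q140_Msh6het, and to 229 to 367 CPM in Msh6ko and 209 to 289 CPM in Q140_Msh6ko. In both pairs 1 of its 3 genes was called higher and 0 lower; the part of dissection in the Drd3 values was not tested.

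**Figure D3:**
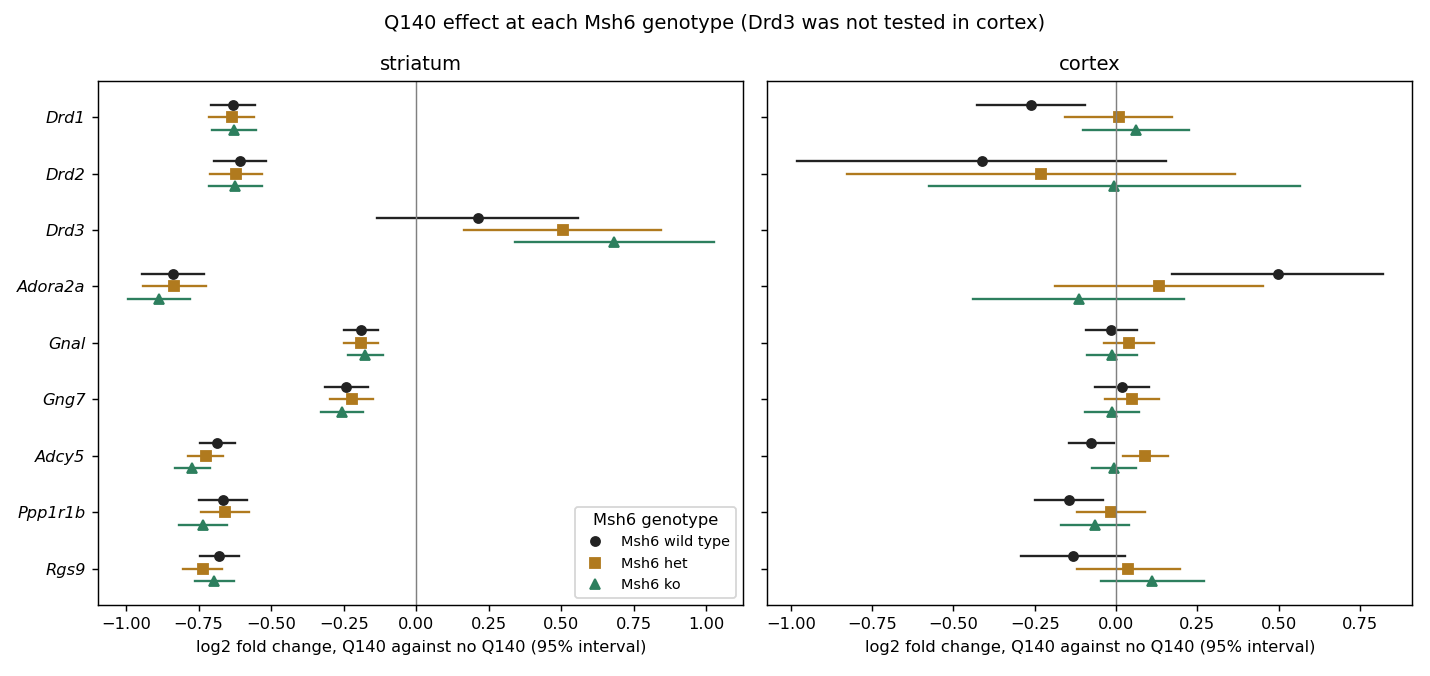
Log2 fold change of Q140 against no Q140 mice for each gene at the 3 Msh6 genotypes, striatum on the left and cortex on the right; bars are 95% confidence intervals from the edgeR fit of 48 libraries per tissue. In striatum the intervals of 8 genes lay below 0 at every Msh6 genotype, from -0.89 for Adora2a to -0.18 for Gnal in the Msh6-/- pair, and in cortex most intervals crossed 0.

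Whether the Q140 effect depended on Msh6 was tested as a difference of differences. None of the 9 genes passed in striatum with edgeR, DESeq2 or limma, and 0% of all genes were called in either contrast by edgeR. At an unadjusted p under 0.05, 0 of 9 genes differed between the Msh6+/- and wild-type backgrounds and 1 of 9 between the Msh6-/- and wild-type backgrounds. That gene was Adcy5, whose log2 fold change was more negative in Msh6-/- mice, by a difference of -0.09 (95% confidence interval of the difference from -0.171 to -0.000159; adjusted p = 0.982). For Drd1 the same difference was 0.00 with an interval from -0.10 to 0.11, and for Drd2 it was -0.02 with an interval from -0.14 to 0.11. For Drd3 it was 0.47 with an interval from -0.02 to 0.96, so Drd3 is not shown to respond differently across Msh6 genotypes. Of all genes, 836 and 876 had an unadjusted p under 0.05 in the Msh6+/- and Msh6-/- contrasts.

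Loss of Msh6 was also compared within mice with and without Q140. None of the 9 genes was called in striatum in 4 such comparisons with edgeR, DESeq2 or limma. Among all genes, edgeR called 0.0114% in Msh6het against WT, 0.0971% in Msh6ko against WT, 0.00571% in Q140_Msh6het against Q140 and 0.177% in Q140_Msh6ko against Q140. In the 4 comparisons 992, 1121, 753 and 957 of all 17503 genes tested had an unadjusted p under 0.05. Of the 9 genes, 0, 0, 0 and 1 did. The 1 gene was Adcy5, at -0.06 ± 0.03 in Q140_Msh6ko against Q140 (adjusted p = 0.913). In cortex, 0 of the 8 tested genes were called in the same 4 comparisons, against 0.00567%, 0.131%, 0.0113% and 0.153% of all genes. There, 1, 1, 3 and 2 of the 8 had an unadjusted p under 0.05. Of all 17622 genes tested in cortex, 581, 589, 1388 and 1225 did.

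Ratios between genes within a library need no scaling between libraries. The ratio of Adcy5 to Gnal reads was 1.81 to 2.03 (median 1.97) in WT and 1.301 to 1.48 (median 1.38) in Q140. It was 1.77 to 2.23 in Msh6het and 1.305 to 1.504 in Q140_Msh6het, and 1.83 to 2.14 in Msh6ko and 1.26 to 1.42 in Q140_Msh6ko. The groups did not overlap in any of the 3 pairs (two-sided exact permutation test over 12870 splits, p = 0.000155, the smallest it can give; adjusted p = 0.000932 over 18 tests). The cyclase fell by more than the Golf subunit in the same libraries, by a factor of 0.709 in the WT pair, 0.690 in the Msh6+/- pair and 0.661 in the Msh6-/- pair. Reads of Mppe1 that may be counted with Gnal bear on this ratio.

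Adora2a and Drd2 mark the same class of projection neuron. The ratio of Adora2a to Drd2 reads was 1.57 to 2.04 (median 1.74) in WT and 1.27 to 1.74 (median 1.56) in Q140, and it fell by a factor of 0.854 (exact permutation test, adjusted p = 0.0172). The factor was 0.861 in the Msh6+/- pair (exact permutation test, adjusted p = 0.00559) and 0.833 in the Msh6-/- pair (exact permutation test, adjusted p = 0.0035). The ranges overlapped in all 3 pairs. The ratio of Rgs9 to Drd2 fell in the Msh6+/- pair, by a factor of 0.923 (exact permutation test, adjusted p = 0.00559), and did not pass in the WT and Msh6-/- pairs at 0.952 and 0.951.

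Drd2 and Drd1 mark the D2 and the D1 class. Their ratio was 0.628 to 0.772 (median 0.666) in WT and 0.647 to 0.751 (median 0.674) in Q140, a factor of 1.02 (exact permutation test, adjusted p = 0.692). The factors were 1.01 in both other pairs, and none passed. The ratio of Ppp1r1b to Adcy5 changed by factors of 1.01 to 1.05 and did not pass in any pair. Gng7 to Gnal changed by factors of 0.947 to 0.979 and did not pass either. A test that was not passed does not show that these ratios are equal.

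**Figure D4:**
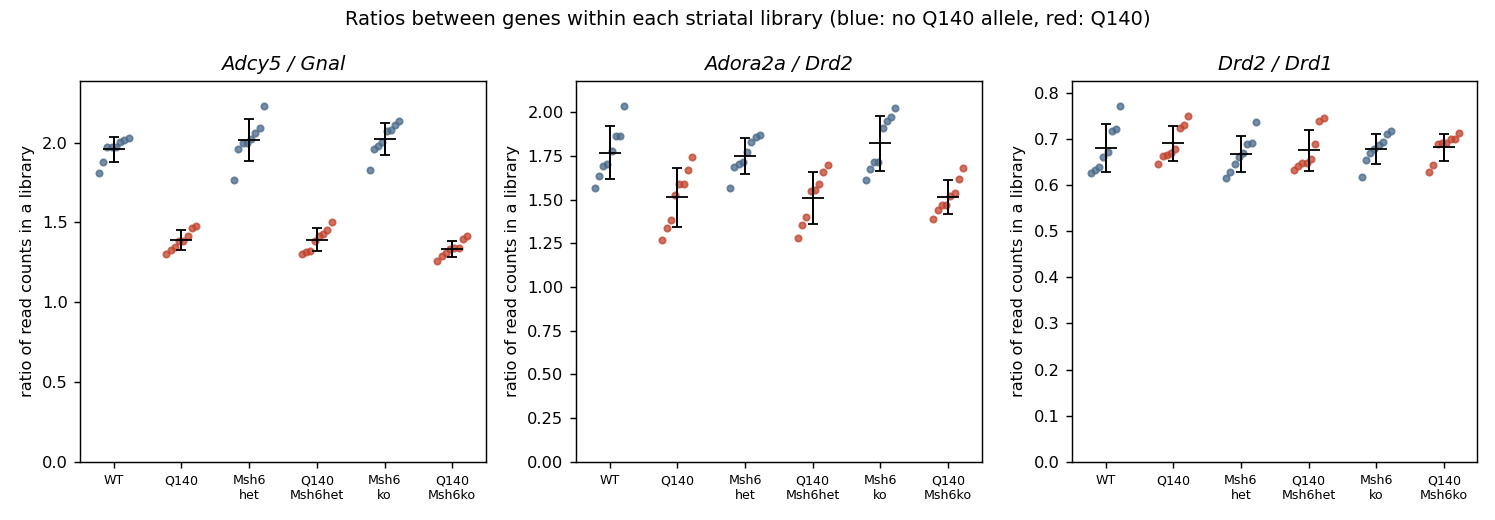
Ratio of read counts between genes in each striatal library, by genotype; points are mice sorted by value and black marks the mean ± SD of 8 mice (blue without and red with a Q140 allele). Adcy5 over Gnal was 1.81 or more in WT and 1.48 or less in Q140 mice, Adora2a over Drd2 was lower with overlap, and Drd2 over Drd1 had medians of 0.666 and 0.674.

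In cortex, none of the 8 genes tested was called in Q140 against WT by edgeR or limma, where edgeR called 0.017% of all genes. DESeq2 gave no adjusted p for any of the 8. At an unadjusted p under 0.05 there were 4 of 8, against 1081 of all 17622 genes tested. Adora2a had 0.891 to 2.09 CPM in WT and 1.61 to 3.05 CPM in Q140, a log2 difference of 0.50 ± 0.16 (adjusted p = 0.493). Drd1 had 4.53 to 5.88 CPM and 3.21 to 5.91 CPM, a difference of -0.26 ± 0.08 (adjusted p = 0.472). Ppp1r1b differed by -0.14 ± 0.05 and Adcy5 by -0.08 ± 0.03. The groups of all 4 genes overlapped.

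In the Msh6+/- and Msh6-/- pairs, 0 of 8 cortical genes were called by edgeR or limma, against 0.193% and 0.136% of all genes by edgeR. At an unadjusted p under 0.05 there were 1 and 0 of the 8, against 2094 and 945 of all 17622 genes tested. DESeq2 gave an adjusted p for 2 of the 8 genes in the Msh6+/- pair and 7 of the 8 in the Msh6-/- pair, and called 0 of these. Adora2a differed by 0.13 ± 0.16 and -0.11 ± 0.16 on the log2 scale there, and Drd1 by 0.01 ± 0.08 and 0.06 ± 0.08. Drd2 rested on 3 to 22 reads per cortical library and Drd3 on 0 to 3. At this depth a change of Drd2 in cortex could be missed, and Drd3 was not tested between genotypes there. The difference of the Q140 effect between Msh6 genotypes was called for 0 of 8 genes by edgeR, DESeq2 or limma in either contrast, with 0% of all genes called by edgeR. At an unadjusted p under 0.05 there were 2 of 8 in the Msh6+/- contrast and 3 of 8 in the Msh6-/- contrast, among them Drd1 at 0.27 ± 0.12 and 0.32 ± 0.12. Of all 17622 genes tested, 911 and 692 had an unadjusted p under 0.05 in these contrasts.

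The Q140 effect against WT differed between the tissues for 7 of the 9 genes, all more negative in striatum. Among all genes, 6.89% were called in that direction (edgeR, Q140 and WT mice compared within a fit of all 96 libraries). The difference was -1.32 ± 0.17 on the log2 scale for Adora2a (adjusted p = 2.98e-09), -0.61 ± 0.05 for Adcy5, -0.54 ± 0.08 for Rgs9 and -0.52 ± 0.07 for Ppp1r1b. It was -0.37 ± 0.09 for Drd1, -0.25 ± 0.06 for Gng7 and -0.17 ± 0.05 for Gnal. For Adora2a it joins a striatal log2 fold change of -0.84 to an uncalled cortical one of 0.50. The cortical value rested on 15 to 55 reads per library, and was 0.13 and -0.11 in the Msh6+/- and Msh6-/- pairs. Drd2 did not pass, at -0.18 ± 0.29 (adjusted p = 0.771), and neither did Drd3. With the animal as a paired block, 7 genes were again called.

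Females and males were compared for the Q140 effect against WT in striatum. The difference was called for none of the 9 genes by edgeR, DESeq2 or limma, with 0% of all genes called by edgeR. Of all 17503 genes tested, 851 had an unadjusted p under 0.05, and 1 of the 9 genes did. That gene was Drd3, at 0.89 ± 0.33 higher in females (unadjusted p = 0.00917; adjusted p = 0.973 with edgeR). In each sex taken alone 8 of the 9 genes were lower, where edgeR called 8.84% of all genes lower in females and 8.59% in males. By limma on log2(FPKM + 0.1) it was 7 of the 9 in each sex, since Gng7 in females (-0.13, adjusted p = 0.0505) and Gnal in males (-0.09, adjusted p = 0.0807) did not pass. In females taken alone Drd3 was called higher (0.65 ± 0.23, adjusted p = 0.0424, with 8.26% of all genes called higher by edgeR), a call lost without the filter on low counts (adjusted p = 0.0731). In females Drd3 was 1.15 to 2.15 CPM in WT and 1.81 to 3.52 CPM in Q140. In males it was 1.69 to 2.51 CPM in WT and 1.41 to 1.79 CPM in Q140. In the Msh6+/- pair the males ran the other way, from 1.24 to 1.80 CPM without Q140 and from 2.05 to 3.64 CPM with it. For the other 8 genes the sex difference lay between -0.11 and 0.05 on the log2 scale. Animal numbers began with 13 to 21 in WT males and with 22 to 29 in Q140 males, with no overlap. In WT and Q140 females they began with 16 to 20 and 14 to 23. The part of this numbering in the values by sex was not tested. In cortex the sex difference was called for 0 of 8 genes by edgeR, DESeq2 or limma, with 0% of all genes called by edgeR. At an unadjusted p under 0.05 there was 1 of 8, against 1092 of all 17622 genes tested.

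The wider route was followed in a list of 100 other genes, of which 97 were in the table and 92 were tested in striatum. In Q140 against WT, 37 were called lower and 14 higher, against 14.2% lower and 15.5% higher of all genes. The median log2 fold change of the list was -0.09, against 0.01 for all genes. In the Msh6+/- pair 31 were lower and 12 higher, against 14.9% lower and 16.3% higher of all genes. In the Msh6-/- pair 34 were lower and 12 higher, against 15.2% and 17.8%. In each of these striatal comparisons the share called higher was no larger in the list than among all genes. In cortex 94 were tested, and 0 were called in Q140 against WT by edgeR, against 0.017% of all genes. In the Msh6+/- pair 1 was called lower and 0 higher, and in the Msh6-/- pair 1 higher and 0 lower. Among all genes 0.193% and 0.136% were called in these cortical pairs.

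Other receptors fell where they passed in Q140 against WT, 5 of 8 tested, where 14.2% of all genes were called lower. Gpr6, an orphan receptor that raises cAMP, went from 99.4 ± 6.67 to 65.3 ± 3.70 CPM (SD, n = 8), with -0.61 ± 0.05 on the log2 scale. Of 8 other adenylyl cyclases 3 were lower and 0 higher, where 14.2% of all genes were called lower. Adcy9 changed by -0.28 ± 0.05 and Adcy2 by -0.10 ± 0.04. In each of the other pairs 1 of the 8 cyclases was lower and 0 higher. That is no more than the 14.9% and 15.2% of all genes called lower there. Receptors in the Msh6+/- and Msh6-/- pairs were lower in 4 and 5 of 8, with 0 higher.

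Of 9 RGS proteins and partners tested, 7 were lower and 0 higher in Q140 against WT, where 14.2% of all genes were called lower. Rgs14 went from 84.9 ± 10.3 to 43.3 ± 3.68 CPM, with -0.97 ± 0.06 on the log2 scale, and Rgs4 from 785 ± 63.3 to 467 ± 34.2 CPM, with -0.75 ± 0.06. Gnb5, the beta subunit that pairs with RGS9, changed by -0.37 ± 0.05. Of 4 beta subunits tested 2 were lower and 1 higher, and of 8 other alpha subunits 1 was lower and 1 higher. Among all genes, 15.5% were called higher. Gnb2 changed by -0.18 ± 0.03 and Gnao1, the alpha subunit of Go, by -0.18 ± 0.02. Gnai1, an inhibitory alpha subunit, rose by 0.21 ± 0.05. Of 6 chaperones, kinases and arrestins of receptors tested 3 were lower and 1 higher. Ric8b, a chaperone of Golf, changed by -0.25 ± 0.03 and the receptor kinase Grk5 by -0.28 ± 0.06. In each of the other pairs 6 of the 9 RGS proteins and partners were lower and 0 higher. Of the 4 beta subunits 2 were lower and 0 higher in each. Of the 8 alpha subunits 1 was lower in each, and 3 and 2 were higher in the Msh6+/- and Msh6-/- pairs. Of the 6 chaperones, kinases and arrestins 2 and 3 were lower, and 2 and 1 higher. Among all genes 14.9% and 15.2% were called lower and 16.3% and 17.8% higher there.

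Of 9 other gamma subunits 4 were higher, 0 lower and 5 did not pass in Q140 against WT, where 15.5% of all genes were called higher. In each of the other pairs 2 of the 9 were higher, against 16.3% and 17.8% of all genes. Gng3 went from 79.2 ± 5.76 to 117 ± 4.86 CPM (0.56 ± 0.04 on the log2 scale) and Gng4 from 11.48 ± 1.11 to 20.0 ± 1.62 CPM (0.80 ± 0.07). In the Msh6+/- pair Gng3 rose by 0.60 ± 0.04 and Gng4 by 0.78 ± 0.07, and in the Msh6-/- pair by 0.59 ± 0.04 and 0.95 ± 0.07. Protein kinase A subunits also rose where they passed in Q140 against WT, 4 of 6 with 0 lower, against 15.5% of all genes called higher. The regulatory subunit Prkar1b rose by 0.27 ± 0.03 and the catalytic subunit Prkacb by 0.15 ± 0.03. Each of the other pairs also had 4 of 6 higher and 0 lower, against 16.3% and 17.8% of all genes called higher.

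Of 12 genes for protein phosphatase 1, calcineurin and other enzymes around DARPP-32, 8 were lower and 0 higher in Q140 against WT. Ppp3ca, the catalytic subunit of calcineurin, went from 2907 ± 96.7 to 2116 ± 56.6 CPM, with -0.46 ± 0.03 on the log2 scale. Ppp1r1a, an inhibitor of protein phosphatase 1 related to DARPP-32, changed by -0.61 ± 0.04. Of 9 other kinase A substrates and anchors 6 were lower and 1 higher. Among all genes, 14.2% were called lower and 15.5% higher in Q140 against WT. Arpp21 went from 1892 ± 139 to 1063 ± 48.5 CPM (-0.83 ± 0.04) and Arpp19 from 719 ± 45.2 to 419 ± 25.8 CPM (-0.78 ± 0.04). In each of the other pairs 7 of the 12 and 6 of the 9 were lower, against 14.9% and 15.2% of all genes. Of the 12, 0 and 1 were higher in the Msh6+/- and Msh6-/- pairs, and of the 9, 1 in each.

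Of 6 genes for dopamine synthesis, transport and breakdown 2 were higher: Ddc, the decarboxylase that makes dopamine, by 0.27 ± 0.08, and Maoa, which breaks it down, by 0.17 ± 0.06. None of the 6 was called higher in the other pairs, and 1 was called lower in the Msh6-/- pair. Of 7 genes for adenosine supply and removal 2 were lower: Entpd1, an ectonucleotidase, at -0.32 ± 0.08, and Slc29a1, a nucleoside transporter, at -0.21 ± 0.05. Each of the other pairs also had 2 of the 7 lower, with 0 and 1 higher in the Msh6+/- and Msh6-/- pairs. Among all genes, 15.5% were called higher and 14.2% lower in Q140 against WT. In the Msh6+/- and Msh6-/- pairs 16.3% and 17.8% were called higher and 14.9% and 15.2% lower. With 6 and 7 genes tested, these counts are too small to set apart from those shares.

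**Figure D5:**
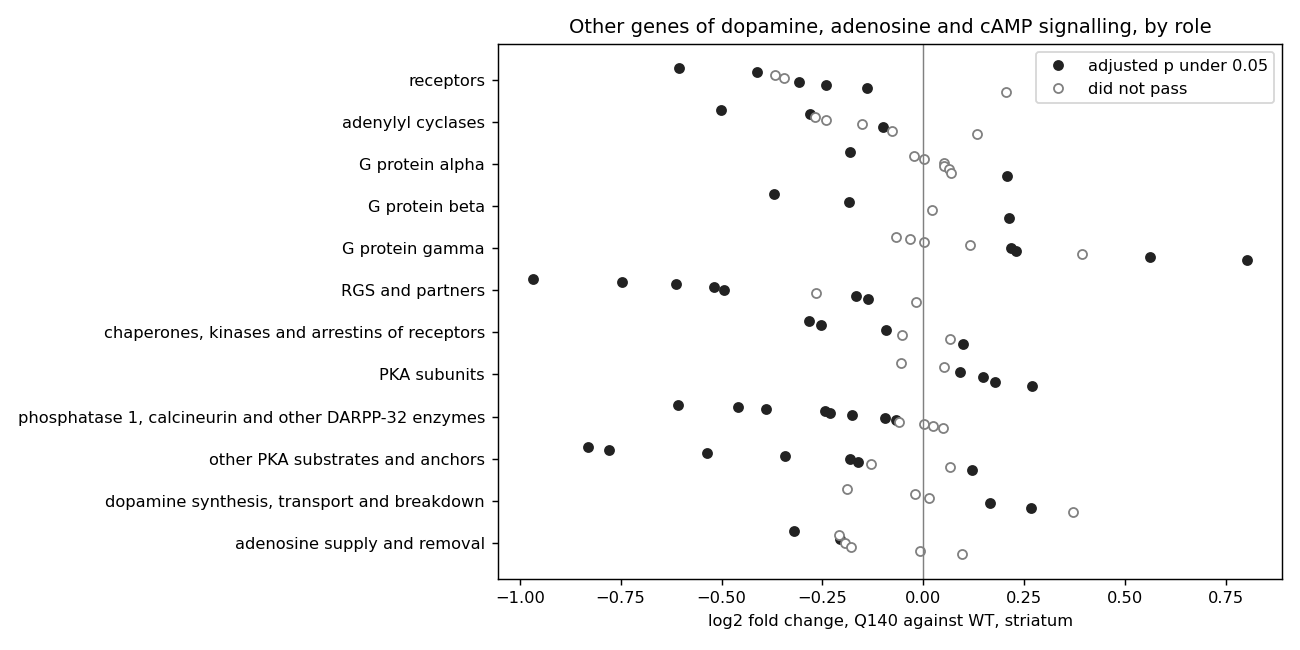
Log2 fold change of Q140 against WT in striatum for the 92 tested genes of the list, grouped by role; filled points passed an adjusted p of 0.05 in edgeR and open points did not. The RGS group has 7 filled points, all below 0, and the gamma subunits have 4, all above 0, up to Gng4 at 0.80.

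Variation among mice of the same genotype and sex was compared over the 48 striatal libraries, as log2 CPM after removing genotype and sex. The correlations share libraries and scaling and are given as a description. Among the 8 genes other than Drd3, the highest correlation was between Gng7 and Drd2 (Pearson's r = 0.68) and the lowest between Adora2a and Drd1 (r = 0.11). Adora2a and Drd2 had r = 0.34. Over 10789 genes, those most like Drd1 were Slit3 (r = 0.77), Foxp1 (r = 0.75) and Neto2 (r = 0.74). Those most like Drd2 were Tiam2 (r = 0.80), Kazn (r = 0.80) and Zfp385b (r = 0.79). Those most like Adcy5 were Unc5a (r = 0.71), Camk2b (r = 0.71) and Fbxo41 (r = 0.70).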

How the data were processed

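Gene-level read counts and FPKM values of 96 libraries were used as deposited. Per the labels, RNA was extracted with a Qiagen RNeasy kit and libraries were made by the stranded TruSeq method of Illumina. The submitters' processing notes name STAR 2.7.5c, SAMtools 1.10, HTSeq 0.12.3 and GRCm38 (mm10). The counting's strand setting and its gene annotation are not named in these sources. The deposited counts are whole reads per gene, and the deposited FPKM values are the authors' scaling by length and depth.

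From the counts, edgeR 4.0.16 was run per tissue on all 48 libraries (trimmed-mean scaling, filterByExpr with a minimum count of 10 and a minimum total of 15, sex as a covariate, quasi-likelihood test, Benjamini-Hochberg adjustment over all genes tested, threshold 0.05). It tested 17503 genes in striatum, 17622 in cortex and 18440 in all libraries. Standard errors were the log2 fold change over the root of F. The code was tested on simulated counts. All 192 value columns were matched to samples by their titles. Each sample is 1 mouse and tissue, so groups of 8 are separate animals.

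Both tissues of a mouse carry its number in the labels, which pairs them. Deviations from the group mean of the same mouse's tissues correlated with a median r of 0.207 over 48 mice (from -0.162 to 0.372) across 14742 genes, against -0.00486 for different mice. Ratios of counts were tested by exact permutation. Named genes were the 9 genes, up to 2 called genes per role of the list with the smallest adjusted p in Q140 against WT striatum, and the 3 genes most like Drd1, Drd2 and Adcy5 whose mean log2 CPM reached 3. The members, lists and tests were chosen with earlier results of these data known. One gene that this rule names is not reported here. Alternatives were RLE scaling, no filter, DESeq2 1.42.0, limma on log2(FPKM + 0.1) and log2(FPKM + 1) where a gene's mean FPKM reached 0.1, no sex term, the number prefix of the animal as a covariate, the 2 groups alone, and leaving out mouse 21-3.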

Additional observations from a re-analysis of the deposited data

Results flagged for a closer look

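In 9 of 102 groups of 8 mice, 1 library lay far from the rest, its gap to the nearest of the others passing Dixon's 95% critical value for 8 values; chance gives about 1 in 20 groups. In striatum these were Adcy5 in Msh6ko mouse 24-3 (2003 CPM), Drd1 in Q140 mouse 24-1 (227 CPM), Drd2 in Msh6het mouse 26-3 (284 CPM), Drd3 in Msh6het mouse 18-4 (3.22 CPM), Gnal in Q140_Msh6het mouse 26-4 (867 CPM) and Ppp1r1b in WT mouse 20-2 (2752 CPM). In cortex they were Gng7 in Msh6ko mouse 24-3 (66.6 CPM), Gng7 in Q140_Msh6ko mouse 38-1 (63.3 CPM) and Ppp1r1b in Q140 mouse 29-3 (82.9 CPM).

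The Q140 effect in striatum minus that in cortex passed the test of the difference itself for 7 genes: Adcy5 (-0.61), Adora2a (-1.32), Drd1 (-0.37), Gnal (-0.17), Gng7 (-0.25), Ppp1r1b (-0.52) and Rgs9 (-0.54), on the log2 scale. The Adora2a value includes an uncalled cortical difference of 0.50, at 15 to 55 reads per cortical library of WT and Q140 mice.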

How the results depend on the processing

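The striatal Q140 effects of the 9 genes at the 3 Msh6 genotypes kept their direction and their side of the threshold in all 243 recomputed values. For Adora2a in Q140 against WT the log2 fold change ran from -0.86 to -0.76, and for Gnal from -0.20 to -0.12. With the animal number as a replicate block, the tissue difference of the Q140 effect was -0.61 for Adcy5 and -0.37 for Drd1, and the block changed no call of the 9 genes. Drd3 was called higher in Q140 females alone (0.65 ± 0.23, edgeR, adjusted p = 0.0424). With no filter on low counts 0 of the 9 genes were called higher in females, and the adjusted p of Drd3 was 0.0731. By limma on log2(FPKM + 1), the adjusted p was 0.0514 for Gng7 in females and 0.0806 for Gnal in males. Leaving out each of the 16 Q140 and WT mice in turn, chosen after seeing the data, moved the Drd3 sex difference between 0.71 and 1.03. None of the 9 genes was called. With males only or females only, 0 of 18 ratios passed, where 4 mice a group allow an unadjusted p of 0.0286 at the lowest. Covariates for the number prefix and the fit without mouse 21-3 were not run for the sex contrasts. Depth limits Adora2a, Drd2 and Drd3 in cortex and Drd3 in striatum.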
